A study of Homo sapiens with 132 samples.

Results

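BMF, BCL2L11 (the gene of BIM), BBC3 (the gene of PUMA), PMAIP1 (the gene of NOXA), BAD, BID, BIK and HRK are the classical BH3-only genes. They were followed in 4 gastric cancer cell lines treated with drugs or ligand of the EGFR/HER2 receptors. Members were taken by name: the 8 Ensembl identifiers that map to these symbols, out of 65217 identifiers in every count file. RNA was counted in 24 libraries each of NCI-N87 and MKN7 and 42 each of MKN1 and Hs746T, with 3 libraries in each of 44 conditions. All 4 lines were left untreated or received trastuzumab (Tra, an antibody to HER2, 5 µg/ml), afatinib (Afa, an inhibitor of the kinases of EGFR and HER2, 0.5 µM) or both, for 4 h or 24 h. MKN1 and Hs746T also received EGF (the ligand of EGFR, 5 ng/ml), cetuximab (Cet, an antibody to EGFR, 1 µg/ml) or both, at the same times. NCI-N87, MKN7 and MKN1 were grown in RPMI and Hs746T in DMEM, both with fetal calf serum. Controls of the afatinib libraries were untreated cells. Per the paper DMSO is the solvent of afatinib, and no library here is labelled as DMSO. Effects of afatinib and of its solvent therefore cannot be told apart, with or without trastuzumab. Each line is a single established tumour line, and nothing in the labels tells whether the 3 replicates came from separate cultures, so p-values measure the spread between these libraries, which may be technical.

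BH3-only proteins start the mitochondrial pathway of apoptosis. Each carries a short helix, the BH3 domain, that fits into a groove of survival proteins such as BCL2, BCL2L1 and MCL1, and BIM, PUMA and the cleaved form of BID can also engage the pore formers BAX and BAK1. Their activity is set at different levels. BIM protein is phosphorylated and degraded downstream of ERK and its gene is a target of forkhead factors. BAD protein is silenced by phosphorylation, and BID is activated by cleavage. PUMA and NOXA are known p53 targets, and BMF binds dynein light chains and responds to loss of attachment and of growth factors. RNA levels therefore show only 1 layer of their control, and in lysates of whole cultures fewer cells of a kind and less RNA per cell cannot be told apart.

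The 3 members whose RNA rose with afatinib in more than 1 line are BMF, BCL2L11 and BBC3. The windows around their start sites are shown for that reason. Sequences are those of RefSeq (GRCh38.p14), 5′ to 3′ on the strand of the gene, with 250 bases before the start and 50 from it on. Capitals mark the letters of 3 motifs found on either strand: GTAAACA (forkhead factors), CACGTG (E-box) and TGANTCA (AP-1).
BMF, chr15:40108830-40109129, minus strand: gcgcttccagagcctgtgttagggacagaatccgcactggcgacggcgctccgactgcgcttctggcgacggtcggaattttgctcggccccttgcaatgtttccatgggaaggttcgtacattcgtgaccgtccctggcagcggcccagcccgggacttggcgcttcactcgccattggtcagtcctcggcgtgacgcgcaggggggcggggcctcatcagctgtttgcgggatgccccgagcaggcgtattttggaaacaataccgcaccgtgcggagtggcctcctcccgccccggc
BCL2L11, chr2:111120664-111120963, plus strand: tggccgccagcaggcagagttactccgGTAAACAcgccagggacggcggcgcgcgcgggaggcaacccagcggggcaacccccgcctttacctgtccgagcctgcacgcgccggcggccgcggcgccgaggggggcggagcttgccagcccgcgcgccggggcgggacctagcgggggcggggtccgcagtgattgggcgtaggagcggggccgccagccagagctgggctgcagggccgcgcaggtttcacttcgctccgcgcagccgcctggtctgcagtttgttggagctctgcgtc
BBC3, chr19:47232618-47232917, minus strand: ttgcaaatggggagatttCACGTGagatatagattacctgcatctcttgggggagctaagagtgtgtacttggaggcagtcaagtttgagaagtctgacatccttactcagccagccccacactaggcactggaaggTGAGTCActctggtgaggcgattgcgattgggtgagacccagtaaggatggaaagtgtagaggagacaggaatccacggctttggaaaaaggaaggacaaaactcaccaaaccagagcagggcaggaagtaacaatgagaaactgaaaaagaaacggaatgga
The BCL2L11 window held GTAAACA once, starting 223 bases before the start site, and this motif was present in 3.42% of 34943 distinct windows of the same length. In the BBC3 window CACGTG started 232 and TGAGTCA 113 bases before the start site, against 7.23% and 7.72% of all windows with each motif. The BMF window held none of the 3, and neither did the other RefSeq window of BMF, which lies further downstream. No window of the 8 genes held TGACGTCA (the CRE, in 1.84% of all windows), and CACGTG was also in windows of BID. GGGCGG (the GC box), whose matches in the 3 windows shown overlap none of the capitals, was present in 44.9% of all windows, in the upstream BMF window and in that of BCL2L11, and not in that of BBC3. The GC content was 65% for this BMF window, 74.7% for BCL2L11 and 48% for BBC3, beside a median of 58.7% over all windows. Windows matched 7 of the 8 members, 13 windows in all, and BIK had no window. These matches are letters only, and no binding was measured.

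Total counts were 25832557 to 69434151 per library (median 50725775), so 3 counts correspond to 0.0432 to 0.116 CPM (counts scaled to a common library total), which limits what can be said of the rarest members. CPM is corrected for composition between all libraries by the trimmed mean of M values (TMM). Epithelial markers matched the labels in part: EPCAM and CDH1 had medians of 496 and 256 CPM in NCI-N87 and 626 and 243 CPM in MKN7, whereas CDH1 was at 1.998 CPM in MKN1 and 0.785 CPM in Hs746T. KRT19 was at 26.4 CPM in Hs746T and had medians of 1142 CPM or more in the other lines. In NCI-N87, MKN7, MKN1 and Hs746T, in this order, KRT8 had medians of 9663, 3083, 11070 and 342 CPM. KRT18 was at 2796, 854, 2984 and 150 CPM. Of the mesenchymal markers, VIM was at 4.17, 3.74, 559 and 1595 CPM and FN1 at 236.5, 624, 677 and 2089 CPM. ZEB1 was at 8.28, 2.68, 34.9 and 57.25 CPM and CDH2 at 0.209, 0.657, 0.399 and 79.8 CPM. Blood cell markers PTPRC and CD3E did not exceed 0.664 CPM in any library, and the endothelial marker PECAM1 had a median of 155 CPM in Hs746T. Counts of 2 members could include reads of a gene on the opposite strand, since the strand setting of the counting is not given in the sources used here. BCL2L11 overlaps MIR4435-2HG and BAD overlaps GPR137. Over all libraries MIR4435-2HG had 376135 counts and BCL2L11 274748, and GPR137 had 400154 counts and BAD 49694.

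In untreated cells the mean levels of the 8 genes per kilobase (kb) of exon ran from 0.132 to 27.1 CPM in NCI-N87. In MKN7 they ran from 0.553 to 24.9 CPM per kb. PMAIP1 (which mainly neutralises MCL1), BID (the link from death receptors to mitochondria) and BIK (a member found at the endoplasmic reticulum) were the most abundant in NCI-N87 and MKN7, with means of 17.6 to 27.1 CPM per kb over 6 untreated libraries a line. BCL2L11 followed with 7.76 ± 0.367 CPM per kb in NCI-N87 (SD, n = 6) and 4.37 ± 0.474 in MKN7, and BAD (which binds BCL2 and BCL2L1) with 3.28 ± 0.606 and 2.69 ± 0.478. BBC3 had 1.92 ± 0.202 and 1.10 ± 0.189, and BMF 0.638 ± 0.132 and 0.704 ± 0.12. HRK, a member best known from neurons, had the lowest mean per kb, with 0.132 ± 0.0279 CPM per kb in NCI-N87 and 0.553 ± 0.15 in MKN7. The 6 libraries of PMAIP1 in NCI-N87 ranged from 13.4 to 23.5 and those of BIK from 21.1 to 31.4, so these neighbours in the order overlapped. BID in NCI-N87, at 25.1 to 31.2, overlapped BIK too. In MKN7 the ranges of PMAIP1, BID and BIK all overlapped, as did HRK (0.355 to 0.725) and BMF (0.518 to 0.869).

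**Figure D1:**
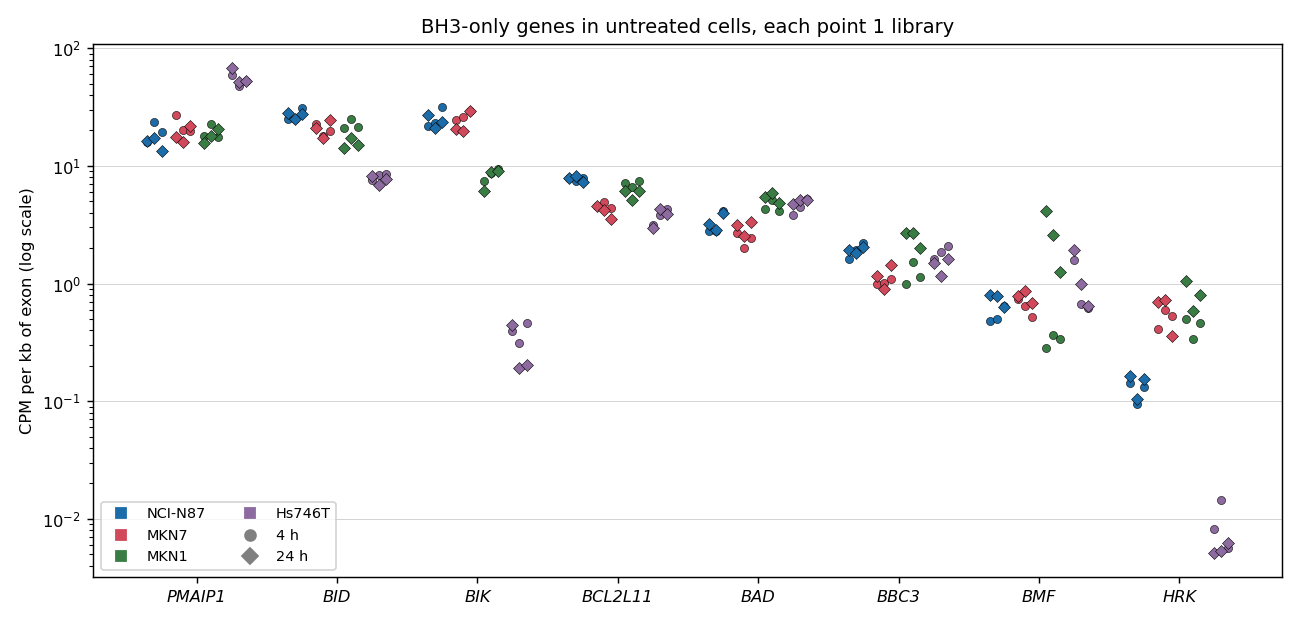
Level of each BH3-only gene in untreated cells, in CPM per kb of exon on a log scale; each point is 1 library, colours are cell lines and shapes are times. Hs746T stands above the other lines for PMAIP1 and below them for BID, BIK and HRK, and the MKN1 points of BMF split by time.

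Hs746T had another profile. PMAIP1 was at 106.9 to 151 CPM in its 6 untreated libraries and at 29.9 to 61.1 CPM in those of the other 3 lines, without overlap. BIK was at 0.182 to 0.441 CPM in Hs746T, at 5.88 to 8.95 CPM in MKN1 and at 18.8 to 29.9 CPM in NCI-N87 and MKN7. HRK had 0 to 12 counts in the 42 Hs746T libraries and 0 counts in 7 of them, so it lay at or near the level of 3 counts and was not tested in the fit of this line. In a fit of all libraries, 5 of 8 members differed by more than 2-fold with p.adjust below 0.05 between NCI-N87 and Hs746T (49.1% of all genes tested), 4 between MKN7 and Hs746T (45.9%) and 4 between MKN1 and Hs746T (47.8%). HRK, near the level of 3 counts in Hs746T, is among them in each case and gets no fold here. Between NCI-N87 and MKN1 2 members differed (45.9%), and 1 each between NCI-N87 and MKN7 (44.4%) and between MKN7 and MKN1 (41.4%). PMAIP1 was lower in NCI-N87 than in Hs746T (log2FC −1.66 ± 0.12 SE, p.adjust 9.22e-24, edgeR), BID was higher (1.79 ± 0.12) and BIK was higher (6.17 ± 0.18). BIK was also higher in NCI-N87 (1.58 ± 0.13) and in MKN7 (1.59 ± 0.13) than in MKN1, and HRK was lower in NCI-N87 than in MKN7 (−2.06 ± 0.27).

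Afatinib moved members in both directions, as it did genes at large. At 24 h 31.5% of all genes tested rose and 31% fell with p.adjust below 0.05 in NCI-N87. The shares were 26.6% and 25% in MKN7, and 12.2% and 13.3% in MKN1. BMF, BBC3 and BCL2L11 RNA rose in NCI-N87 and MKN7 at both times and BMF in MKN1 too, while PMAIP1 and BID fell at 24 h in all 3 lines, and no member passed the test in Hs746T. "Changed" below means p.adjust below 0.05 in edgeR's quasi-likelihood test, with Benjamini-Hochberg adjustment over all genes of the line, and "regulated" adds an absolute log2FC over 1. In NCI-N87 3 of 8 members changed at 4 h, all upward (18.2% of 19078 genes tested), and 2 were regulated (3.24%). At 24 h 5 changed, 3 up and 2 down, which is the same share as for all genes (62.5%), and 4 were regulated (29.6%). In MKN7 3 changed at 4 h, all upward (22.2%), with 1 regulated (3.4%), and at 24 h 7 of 8 changed, 4 up and 3 down (51.6%), with 2 regulated (13.5%). In MKN1 2 changed at 4 h, 1 in each direction (3.68%), with 1 regulated (0.681%), and at 24 h 4 changed, 2 in each direction (25.6%), with 1 regulated (4.19%). In Hs746T 0 of 7 tested members changed at either time (0%). The members' median log2FC at 24 h was 0.19 in NCI-N87, 0.13 in MKN7 and 0.19 in MKN1, against 0.03, 0.04 and 0.01 for all genes.

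**Figure D2:**
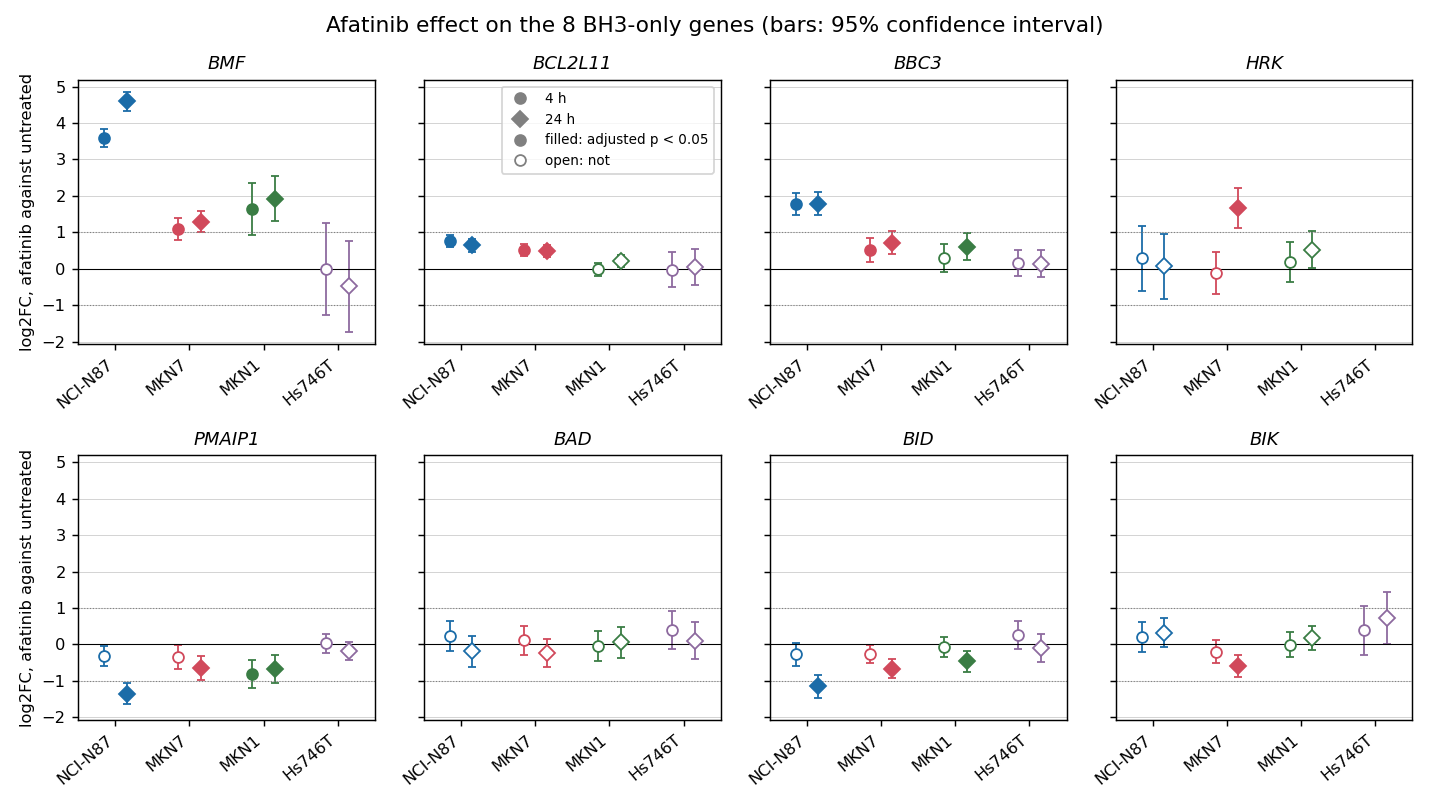
log2FC of afatinib against untreated cells for each BH3-only gene by cell line; circles are 4 h, diamonds 24 h, bars the 95% confidence interval of the fit, and filled symbols have p.adjust below 0.05. BMF in NCI-N87 rises furthest, PMAIP1 and BID pass the test below 0 at 24 h in 3 lines, and HRK rises in MKN7 at 24 h.

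BMF (ENSG00000104081, chromosome 15, 40087890 to 40108892, minus strand, GRCh38) had 2.64, 2.72 and 3.49 CPM in the 3 untreated NCI-N87 libraries at 4 h and 38.2, 32.5 and 35.6 CPM after afatinib. At 24 h the untreated libraries had 4.32, 4.25 and 3.42 CPM and the afatinib libraries 98.1, 97.7 and 101.7 CPM. Every treated library stood far above every untreated one, with log2FC 3.59 ± 0.12 (SE, p.adjust 1.96e-14) at 4 h and 4.60 ± 0.13 (p.adjust 8.86e-17) at 24 h. The effect was larger at 24 h than at 4 h by 1.00 ± 0.16 (p.adjust 5.57e-05). On the linear scale the mean at 24 h was 24.8 times that of untreated cells. In MKN7 BMF went from 4.00, 3.52 and 2.82 CPM to 7.30, 6.85 and 8.49 CPM at 4 h (log2FC 1.10 ± 0.14) and from 4.24, 4.73 and 3.71 to 11, 9.48 and 10.6 CPM at 24 h (1.29 ± 0.14), again without overlap. Without replicate 3 the value at 4 h in MKN7 was 0.89 and still passed the test, but no longer exceeded the fold limit.

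In MKN1 BMF rose from 1.54, 1.98 and 1.82 CPM to 4.77, 4.77 and 7.27 CPM with 4 h of afatinib (log2FC 1.64 ± 0.35, p.adjust 0.0043, edgeR). The call at 4 h was lost without replicate 1 (log2FC 1.64, p.adjust 0.0673) or replicate 2 (1.84, 0.0863). At 24 h the untreated libraries were uneven, with 22.7, 14.1 and 6.88 CPM, but all lay below the afatinib libraries at 61.8, 49.6 and 56.3 CPM (log2FC 1.92 ± 0.30, p.adjust 1.77e-05). The unevenness went with the replicate number: the trastuzumab libraries of the same replicates had 22.9, 15.1 and 6.78 CPM.

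**Figure D3:**
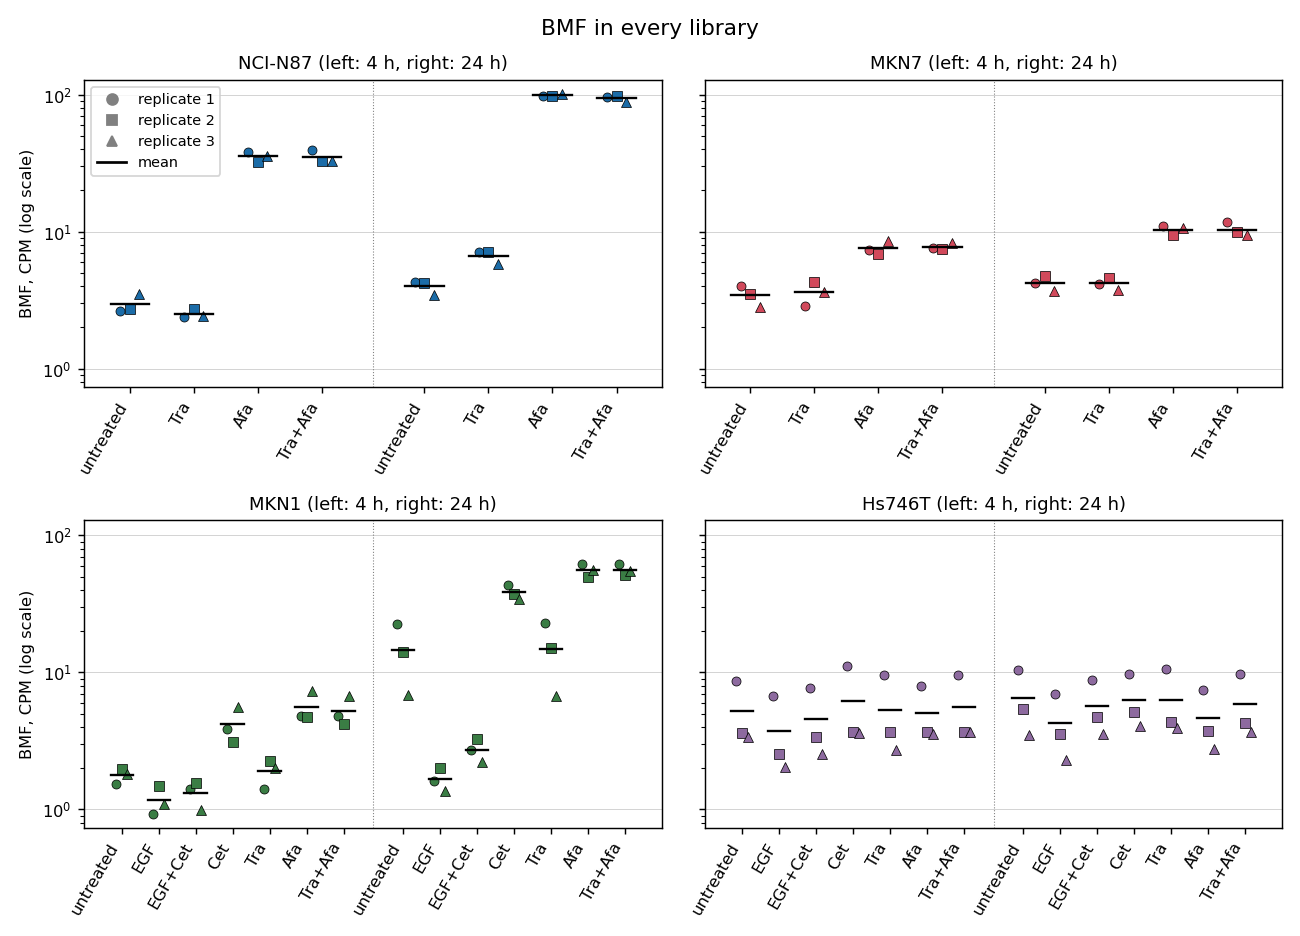
BMF in every library, in CPM on a log scale, by cell line, time and treatment; symbols are replicates 1 to 3 and lines the means. Afatinib, with or without trastuzumab, stands apart from untreated cells in NCI-N87, MKN7 and MKN1, and in Hs746T replicate 1 is highest in all 14 conditions.

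BBC3 (ENSG00000105327, chromosome 19, 47220822 to 47232766), a broad binder of the survival proteins, went from 5.11, 6.17 and 7.01 CPM to 19.7, 18.4 and 24.3 CPM at 4 h in NCI-N87 and from 6.19, 5.75 and 6.45 to 23.4, 18.2 and 23.3 CPM at 24 h. The log2FC was 1.78 ± 0.15 at 4 h and 1.79 ± 0.15 at 24 h (p.adjust 2.77e-08 and 1.13e-09, edgeR), and the 95% interval of the difference between the times ran from −0.42 to 0.44. In MKN7 the rise was smaller, 0.52 ± 0.16 at 4 h (p.adjust 0.021, edgeR) and 0.71 ± 0.15 at 24 h, from 3.69, 2.87 and 4.58 CPM to 6.35, 5.82 and 6.13 CPM at the later time. The 4 h call in MKN7 was lost when any of the replicates was left out (p.adjust 0.0717 to 0.12). In MKN1 BBC3 rose at 24 h only by test, from 8.51, 8.48 and 6.34 CPM to 11.1, 13.6 and 11.2 CPM (0.60 ± 0.18, p.adjust 0.0123; 0.53 and 0.215 without replicate 3), with 0.29 ± 0.19 at 4 h.

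BCL2L11 (ENSG00000153094, chromosome 2, 111119378 to 111168447) started from a higher level and moved less. In NCI-N87 it had 52.1, 49.4 and 52.6 CPM untreated and 91.4, 86.6 and 81.9 CPM with afatinib at 4 h, and 52.5, 55.2 and 48.4 against 84.7, 87.1 and 77.3 CPM at 24 h. No treated library overlapped an untreated one, and the log2FC was 0.76 ± 0.08 and 0.64 ± 0.08 (p.adjust 7.89e-07 and 5.95e-07, edgeR). In MKN7 it rose from 30.4, 32.8 and 29.2 to 41.3, 47.4 and 47.0 CPM at 4 h (0.52 ± 0.08) and by 0.49 ± 0.08 at 24 h. In MKN1 the log2FC was −0.02 ± 0.08 at 4 h and 0.21 ± 0.08 at 24 h (p.adjust 0.0661, edgeR), the second of which passed with the replicate number as a block (p.adjust 0.00663). These values include any reads of the antisense gene MIR4435-2HG that the counting did not separate.

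HRK (ENSG00000135116, chromosome 12, 116856144 to 116881441), which binds BCL2L1, was induced by afatinib in MKN7 alone by test. It had 4.797, 4.97 and 2.43 CPM untreated and 13.6, 16.3 and 9.29 CPM at 24 h (log2FC 1.67 ± 0.26, p.adjust 2.16e-05). At 4 h it had 2.84, 4.09 and 3.62 against 3.07, 4.06 and 2.84 CPM (−0.13 ± 0.28), and the effects at the 2 times differed by 1.80 ± 0.38 (p.adjust 0.00241, 0.0612 without replicate 1, edgeR). In NCI-N87 it lay between 0.467 and 1.60 CPM in the untreated and afatinib libraries, and its change at 24 h was smaller than in MKN7 (difference −1.58 ± 0.52, p.adjust 0.0189, edgeR), a call lost without replicate 2 (p.adjust 0.0639) or 3 (0.292). In MKN1 it went from 7.16, 4.00 and 5.48 CPM to 8.61, 5.78 and 9.84 CPM at 24 h (0.52 ± 0.25, p.adjust 0.131, edgeR), higher in each replicate, and passed with the replicate block (0.50, p.adjust 0.00351).

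PMAIP1 and BID went the other way. PMAIP1 (ENSG00000141682, chromosome 18, 59899948 to 59904306) fell in NCI-N87 from 36.1, 38.9 and 29.9 CPM to 15.7, 12.4 and 14.1 CPM at 24 h (log2FC −1.35 ± 0.14, p.adjust 2.78e-08). At 4 h the value was −0.32 ± 0.14 (p.adjust 0.111, edgeR), and the effects differed by −1.03 ± 0.19 (p.adjust 0.000276). In MKN7 it fell by 0.64 on the log2 scale at 24 h (SE 0.16), from 39.1, 35.7 and 48.3 CPM to 26.1, 24.2 and 29.1 CPM. In MKN1 the fall was there at 4 h, from 39.8, 50.7 and 39.6 CPM to 22.0, 29.6 and 23.4 CPM (−0.81 ± 0.19, p.adjust 0.0108), and at 24 h (−0.68 ± 0.19, p.adjust 0.00864). In MKN1 the 4 h call was lost without replicate 1 (p.adjust 0.115) or replicate 3 (0.211), and the 24 h call without replicate 3 (0.291). BID (ENSG00000015475, chromosome 22, 17734138 to 17774770) fell at 24 h from 126, 112 and 124 CPM to 55.4, 47.1 and 64.0 CPM in NCI-N87 (−1.15 ± 0.15). It fell from 93.1, 77.0 and 108.5 to 58.6, 56.2 and 61.2 CPM in MKN7 (−0.67 ± 0.12), and from 63.5, 77.5 and 66.9 to 47.5, 63.7 and 41.5 CPM in MKN1 (−0.46 ± 0.14, p.adjust 0.0127). The MKN1 libraries of BID overlapped, with 1 treated library at the level of the untreated ones, and the call was lost without replicate 1 or 3 (p.adjust 0.109 and 0.267) and when only the 2 groups were fitted (0.0917). With the replicate block, BID also passed at 4 h in NCI-N87 (−0.27, p.adjust 0.0216) and MKN7 (−0.27, p.adjust 0.00491), as did PMAIP1 at 4 h in MKN7 (−0.34, p.adjust 0.0443).

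BIK (ENSG00000100290, chromosome 22, 43110748 to 43129712) fell in MKN7 at 24 h, from 19.6, 18.8 and 27.9 CPM to 15.9, 12.02 and 16.2 CPM (log2FC −0.59 ± 0.15, p.adjust 0.00214, edgeR). In NCI-N87 it went from 25.8, 20.1 and 22.6 to 28.4, 25.4 and 33.9 CPM (0.32 ± 0.19, p.adjust 0.152), and passed as a rise with the replicate block (0.31, p.adjust 0.00713). The BIK effects of the 2 lines differed by 0.94 ± 0.26 (p.adjust 0.0034, edgeR), which did not pass without replicate 2 (p.adjust 0.0525) or 3 (0.104). BAD (ENSG00000002330, chromosome 11, 64269830 to 64284704) passed the test with no treatment in this fit, and only with both agents in NCI-N87 at 24 h in the blocked fit (−0.36, p.adjust 0.0239). Its afatinib log2FC lay between −0.24 and 0.39 over the 4 lines and both times, with levels of 3.43 to 14.1 CPM in all libraries. Reads of GPR137 on the other strand limit this value.

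The lines were then compared for the size of the afatinib effect, in a fit of all libraries with the difference itself tested. This fit takes a single spread per gene from all lines. A gene with uneven replicates in 1 line thus gets a larger SE in comparisons of other lines too. At 24 h 5 of 8 members differed between NCI-N87 and MKN7 (21.4% of 22832 genes), 4 between NCI-N87 and MKN1 (28%) and 5 between NCI-N87 and Hs746T (35.1%). Between MKN7 and MKN1 1 member differed (7.61%), between MKN7 and Hs746T 2 (18.8%) and between MKN1 and Hs746T 1 (4.41%). At 4 h the counts were 2 (1.01%), 2 (1.83%) and 3 (6.74%) for NCI-N87 against MKN7, MKN1 and Hs746T, and 0 for MKN7 against MKN1 (1.38%), MKN7 against Hs746T (5.3%) and MKN1 against Hs746T (0.372%). BMF rose more in NCI-N87 than in MKN7, by 3.34 ± 0.59 at 24 h (p.adjust 4.62e-06), and than in MKN1, by 2.69 ± 0.57. BBC3 rose more in NCI-N87 than in each of the other 3 lines at both times, by 1.10 to 1.68 on the log2 scale. At 4 h against MKN7 the BBC3 call was lost without replicate 1 (p.adjust 0.0574) or 3 (0.073). BMF also rose more in MKN7 (1.78 ± 0.59) and MKN1 (2.43 ± 0.58) than in Hs746T at 24 h, calls that did not hold without replicate 2 (p.adjust 0.171 and 0.133) or 3 (0.127 and 0.238). The blocked fit called 2 members in each of the 3 comparisons with none at 4 h, among them BMF in MKN7 against Hs746T (1.16, p.adjust 0.00529) and in MKN1 against Hs746T (1.71, p.adjust 0.000505), and BMF in NCI-N87 against MKN1 (1.90, p.adjust 3.85e-05). At 24 h it called 6 members in MKN7 against Hs746T, adding BCL2L11 (0.45), BBC3 (0.60), PMAIP1 (−0.46) and BID (−0.54), and in MKN7 against MKN1 it added HRK (1.16, p.adjust 0.000441). Within a line, 3 members had a different afatinib effect at 24 h than at 4 h in NCI-N87 (BMF, PMAIP1 and BID, 35.8% of genes), 1 in MKN7 (HRK, 18%), and 0 in MKN1 (2.77%) and Hs746T (0%, with 389 genes at an unadjusted p below 0.05). In NCI-N87 the call of BID was lost without replicate 1 (p.adjust 0.0886). With the block, the fall of BID was larger at 24 h in MKN7 (−0.39, p.adjust 0.00397) and MKN1 (−0.40, p.adjust 0.0388) as well. These 2 calls assume that replicate numbers also pair the 2 times, which was not checked.

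Trastuzumab alone changed no member in any line at either time (0 of 8, or 0 of 7 in Hs746T, and 0% of all genes in each of the 8 comparisons). At an unadjusted p below 0.05 between 125 and 786 genes passed in these comparisons, and DESeq2 called 1 gene in NCI-N87 at each time and 0 elsewhere. BMF in NCI-N87 at 24 h came closest: 7.12, 7.15 and 5.78 CPM with trastuzumab against 4.32, 4.25 and 3.42 CPM without, no overlap, log2FC 0.73 ± 0.12 with p.adjust 0.0742 in edgeR. It passed with the replicate block (0.73, p.adjust 0.00855), in DESeq2 (0.74, p.adjust 9.61e-05), with no filter on low counts (0.74, p.adjust 0.0217) and with at least 10 counts asked of every library (0.75, p.adjust 0.0478). In the last 3 of these it was the 1 gene called. BBC3 in the same libraries had 8.94, 6.75 and 8.46 CPM against 6.19, 5.75 and 6.45 CPM, also without overlap (0.38 ± 0.15). Adding trastuzumab to afatinib changed no member against afatinib alone (0% of genes in each of the 8 comparisons, 94 to 202 genes at an unadjusted p below 0.05, and 0 in DESeq2). In NCI-N87 at 24 h BMF had 96.8, 97.2 and 88.7 CPM, BBC3 23.8, 20.02 and 24.1 CPM and PMAIP1 14.7, 10.96 and 14.3 CPM with both agents, beside the afatinib values above. Both treatments share the untreated libraries. HRK and BCL2L11 in MKN1 at 24 h had p.adjust below 0.05 with both agents (0.67 ± 0.25 and 0.27 ± 0.08), though not with afatinib alone. Both calls were lost without replicate 1 (p.adjust 0.0868 and 0.142) or 3 (0.219 and 0.0664), that of HRK also without replicate 2 (0.107).

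In MKN1, where ligand and antibody were also given, BMF differed between untreated cells of 4 h and 24 h. Medium was changed before treatment, per the paper, so time since fresh medium differed as well and was not tested apart. Untreated MKN1 cells had 1.54, 1.98 and 1.82 CPM of BMF at 4 h and 22.7, 14.1 and 6.88 CPM at 24 h, with log2FC 3.01 ± 0.35 (p.adjust 5.14e-08). Among all members 5 of 8 changed between the times in untreated MKN1 (34.1% of genes), with rises of BMF, BBC3 (0.99 ± 0.19) and HRK (0.87 ± 0.27) and falls of BID (−0.54 ± 0.14) and BCL2L11 (−0.31 ± 0.08). HRK and BID lost the call without replicate 1 (p.adjust 0.222 and 0.0793), BCL2L11 without replicate 1 (0.0636) or 3 (0.0583) and with libraries scaled by size alone (−0.14, p.adjust 0.276). No member changed with time in untreated NCI-N87 (0.267%), MKN7 (16.4%) or Hs746T (1.48%), although with the block BMF rose in NCI-N87 (0.45, p.adjust 0.0317) and BCL2L11 fell in MKN7 (−0.20, p.adjust 0.0276). Whether replicate numbers pair libraries across times, as the block assumes, was not checked.

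EGF for 24 h held BMF of MKN1 at 1.62, 2.01 and 1.37 CPM, near the 4 h level, log2FC −3.11 ± 0.35 against untreated cells of 24 h (p.adjust 2.78e-08). In all 5 of 8 members changed with EGF at 24 h (35.8%) and 2 were regulated (8.36%). HRK fell from 7.16, 4.00 and 5.48 to 2.22, 1.56 and 3.65 CPM (−1.14 ± 0.27, p.adjust 0.00112; −0.84 and 0.164 without replicate 1) and BBC3 from 8.51, 8.48 and 6.34 to 5.56, 4.10 and 4.69 CPM (−0.68 ± 0.19). PMAIP1 rose from 35.0, 40.1 and 45.6 to 52.2, 67.2 and 63.9 CPM (0.62 ± 0.19, p.adjust 0.0106) and BID by 0.48 ± 0.14 (p.adjust 0.00627). The rises of PMAIP1 and BID did not pass with libraries scaled by size alone (0.42 and 0.28, p.adjust 0.0715 and 0.0627), or without replicate 1 (0.0539 and 0.109) and, for PMAIP1, replicate 3 (0.0609). BIK had −0.31 ± 0.17 and passed with the replicate block (−0.30, p.adjust 0.00941). At 4 h no member changed with EGF (6.82% of genes did). BMF had 0.926, 1.48 and 1.09 CPM, below each untreated library (−0.60 ± 0.41, p.adjust 0.518, edgeR), and with the block PMAIP1 (0.39, p.adjust 0.00822) and BCL2L11 (0.20, p.adjust 0.0204) passed as rises.

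Cetuximab went the other way for BMF, PMAIP1 and BID. At 24 h 3 of 8 members changed (10.8%) and 1 was regulated (1.33%). BMF rose to 43.6, 37.1 and 34.5 CPM (1.38 ± 0.30, p.adjust 0.00277). PMAIP1 fell to 23.1, 26.6 and 24.9 CPM (−0.71 ± 0.19, p.adjust 0.0141) and BID fell to 55.6, 46.6 and 52.4 CPM (−0.45 ± 0.14, p.adjust 0.0338). The 2 falls were lost without replicate 1 (p.adjust 0.0507 and 0.093) or 3 (0.301 and 0.2), and with the block HRK passed too (0.37, p.adjust 0.0407). At 4 h no member passed in the fit without block (1.43%), where BMF had 3.84, 3.12 and 5.55 CPM against 1.54, 1.98 and 1.82 CPM (1.23 ± 0.36, p.adjust 0.0828, edgeR). PMAIP1 had 20.4, 35.5 and 24.0 against 39.8, 50.7 and 39.6 CPM (−0.71 ± 0.19, p.adjust 0.0537, edgeR). The groups did not overlap for either gene, and both passed with the block (p.adjust 0.0432 and 1.64e-05) and in DESeq2 (0.0126 and 0.0155). Afatinib and cetuximab did not differ by test for any member at 4 h (0% of genes, 262 at an unadjusted p below 0.05 and 0 in DESeq2) or 24 h (0.0757%). The 95% interval of the BMF difference at 24 h ran from −0.05 to 1.13.

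Given together, EGF and cetuximab left BMF at 2.70, 3.27 and 2.22 CPM at 24 h, below every untreated library (−2.40 ± 0.33, p.adjust 5.35e-06), and HRK at 2.72, 2.59 and 3.83 CPM (−0.86 ± 0.26, p.adjust 0.0199; −0.55 and 0.55 without replicate 1). These were the 2 members that changed (18.6%), with BMF regulated (3.38%), and 0 changed at 4 h (0.717%). With the block BBC3 (−0.41, p.adjust 0.0372) and BID (0.37, p.adjust 0.00208) passed as well. Against EGF alone no member changed at 4 h (0.701%) or 24 h (0.646%). BMF was 0.71 ± 0.37 higher than with EGF alone at 24 h (p.adjust 0.517, edgeR), with a 95% interval from −0.04 to 1.46. PMAIP1 differed by −0.36 ± 0.19, which passed with the block (−0.36, p.adjust 0.0379), as did BCL2L11 at 4 h (−0.23, p.adjust 0.0296).

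**Figure D4:**
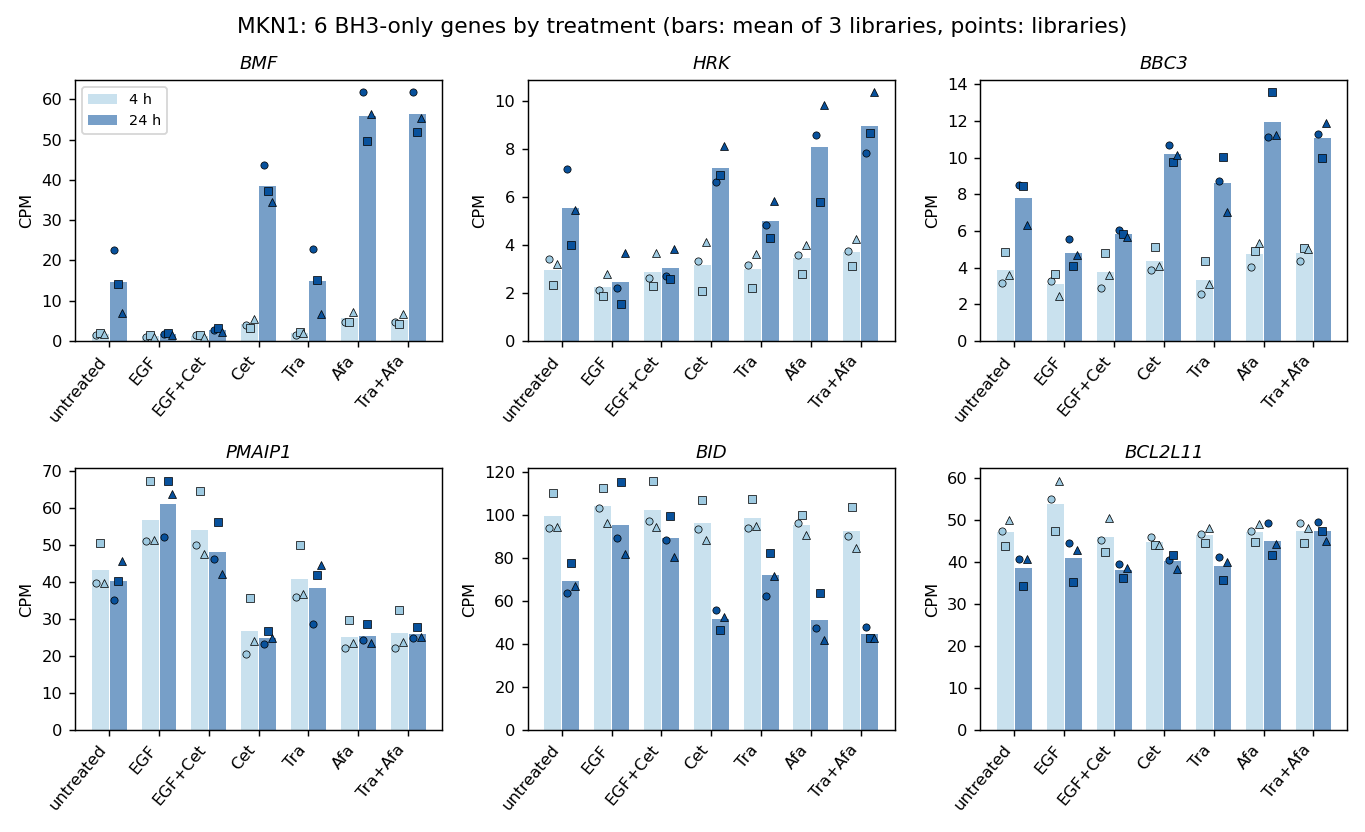
CPM of 6 BH3-only genes in MKN1 by treatment; bars are means of 3 libraries, points are libraries, light is 4 h and dark 24 h. At 24 h BMF, HRK and BBC3 are lowest with EGF and highest with the EGFR blockers, and PMAIP1 and BID show the reverse order.

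In Hs746T none of the 7 tested members changed with afatinib at 4 h or 24 h, nor with EGF, cetuximab or both (0% of 18667 genes in each of these comparisons in edgeR). At an unadjusted p below 0.05 there were 145 to 1371 genes, and DESeq2 called 1 gene with afatinib at 4 h, 2 at 24 h and 0 with the other agents. BMF had 8.66, 3.63 and 3.36 CPM untreated and 7.95, 3.68 and 3.57 CPM with afatinib at 4 h, and 10.48, 5.40 and 3.49 against 7.43, 3.71 and 2.76 CPM at 24 h (log2FC −0.48, 95% interval from −1.74 to 0.77). Replicate 1 had the highest BMF of the 3 in 14 of 14 conditions, 6.69 to 11.2 CPM beside 2.03 to 5.40 CPM in replicates 2 and 3. Within replicates, BMF was lower with EGF than without in 6 of 6 pairs, 3 at each time, and the blocked log2FC of −0.49 at 4 h did not pass (p.adjust 0.74). BBC3 was higher with afatinib in 6 of 6 pairs, with means of 6.30 against 5.84 CPM at 4 h and 5.03 against 4.53 CPM at 24 h. With trastuzumab and afatinib together BBC3 was higher in 2 of 6 pairs and lower in 4, so the rise did not recur. Signs were counted for every member and treatment, and no other combination in Hs746T had all 6 pairs in 1 direction. With so many combinations, full runs in 1 direction can arise by chance.

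The other genes of the pathway were counted by lists, for afatinib at 24 h, beside the 62.5%, 51.6% and 25.6% of all genes that changed in NCI-N87, MKN7 and MKN1. Of the survival genes, BCL2 fell in NCI-N87 (log2FC −2.56), MKN7 (−2.85) and MKN1 (−1.09), BCL2L1 in NCI-N87 (−1.13) and MKN7 (−0.82), and MCL1, the main target of NOXA, in NCI-N87 (−0.39), MKN7 (−0.61) and MKN1 (−0.60). The NCI-N87 value of MCL1 lies beyond the 4 genes named per list and line and was added after its value was seen. In NCI-N87 2 survival genes rose and 3 fell of 5 tested, the rises being those of BCL2L10 (1.67) and BCL2L2 (1.04), in MKN7 0 rose and 3 fell of 4, and in MKN1 0 rose and 2 fell of 5. The medians of this list were −0.39, −0.72 and −0.22. Among the pore formers BAX fell in NCI-N87 (−0.63) and BOK rose in MKN7 (0.24), with 1 call each of 2 tested and 0 in MKN1. Downstream of the mitochondrion 2 of 8 rose and 5 fell in NCI-N87, 1 rose and 4 fell in MKN7 and 1 fell in MKN1. There CYCS, which encodes cytochrome c, fell by 1.71 and 1.06 in NCI-N87 and MKN7, BIRC5 (survivin) fell by 1.07, 0.77 and 0.60 in the 3 lines, and CASP9 rose by 0.74 and 0.39 in NCI-N87 and MKN7.

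Of 10 transcription factors known to act on BH3-only genes, 1 rose and 4 fell in NCI-N87, 2 rose and 5 fell in MKN7 and 1 rose and 3 fell in MKN1. FOXO4, a forkhead factor, rose in all 3 (2.04, 1.20 and 0.79), MYC fell in all 3 (−1.99, −1.44 and −1.34), as did E2F1 (−2.41, −0.66 and −0.33). Other p53 targets fell or did not pass: 5 of 7 fell in NCI-N87, among them FAS (−1.31) and GDF15 (−1.29), and 4 of 7 in MKN7, among them CDKN1A (−1.09), with 0 of 7 changed in MKN1 and none rising in any line. All 6 tested ERK target genes fell in each of the 3 lines, with medians of −4.79, −4.15 and −3.51, SPRY4 furthest in NCI-N87 (−6.05). Genes that bind or modify BH3-only proteins had 3 falls of 7 in NCI-N87 (RPS6KA3 −0.81), and 1 rise and 1 fall each in MKN7 (FBXO10 0.69) and MKN1. Atypical BH3 genes had 5 rises and 1 fall of 7 in NCI-N87, led by BCL2L14 (1.39) and the mitophagy receptor gene BNIP3L (1.33), 1 rise and 1 fall in MKN7 and 1 rise in MKN1. Epithelial markers fell in 3 of 5 in NCI-N87 and 4 of 5 in MKN7, with 1 rise and 1 fall in MKN1, and mesenchymal markers fell in 2 of 4 in NCI-N87 and passed in none in MKN7 or MKN1. Of 2 tested markers of other cell types PTPRC rose in MKN7 (1.55), where it did not exceed 0.505 CPM, and none passed elsewhere. In Hs746T no gene of any list passed.

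Across the 44 conditions, with log2 CPM centred within line and time, BMF followed BBC3 (Pearson r 0.94 over condition means). It ran opposite to PMAIP1 (−0.90) and BID (−0.86), and had 0.72 with BCL2L11 and 0.28 with BIK. Among 15747 genes tested in all 4 lines the 3 most like BMF were TNFSF10, which encodes the death ligand TRAIL (r 0.98), PPOX (0.98) and TNS3 (0.96). BBC3 was closest to KLC4, ULK1 and GNAI1 (0.96 each), BCL2L11 to SPOCK1 (0.95), CDKN1C (0.94) and OTUD1 (0.94), PMAIP1 to NOG (0.97), SERTAD2 (0.97) and IER5 (0.96), and BID to PRMT1 (0.99), EMC8 (0.98) and HRAS (0.98). BAD was closest to FIS1 (0.91), C4orf48 (0.90) and MRPL28 (0.90), and BIK had no close match, with 0.68 for MRPL41, 0.66 for TCEA2 and 0.66 for NOTCH3. These are descriptions: the points share libraries and, within a line, the same untreated cells.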

How the data were processed

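Poly(A) RNA was sequenced from directional libraries. The authors trimmed reads with Trim Galore and aligned them with STAR to hg38, per the labels. The deposited files hold raw counts per Ensembl identifier. The counting tool, its strand setting and the versions are not given in the sources used here.

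Counts were tested as deposited with edgeR 4.0.16 (R 4.3.3; TMM, quasi-likelihood test, Benjamini-Hochberg adjustment over all tested genes), 1 fit per cell line with a mean per condition. Genes passed filterByExpr (minimum count 10, total 15). Differences between lines came from a fit of all libraries. "Changed" means an adjusted p below 0.05, "regulated" also an absolute log2FC over 1. Alternatives were DESeq2 1.42.0, library size in place of TMM, other filters, the compared groups alone, a block for the replicate number, and the removal of each replicate in turn. Names and positions are from GENCODE 29 (GRCh38). Of 65217 identifiers 8404 are not in it and took 0.0422% of counts. The scripts were tested on simulated counts.

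The members and lists were chosen with earlier results of these data known. Members are described in the comparisons they were tested in (HRK was not tested within Hs746T), at most 4 genes per list and line with the largest log2FC that passed are named, and the 3 most alike genes are given for each member tested in all 4 lines, which leaves out HRK. Lists covered survival genes, pore formers, steps after the mitochondrion, transcription factors, binding partners, atypical BH3 genes, p53 targets, ERK targets and markers of epithelial, mesenchymal and other cell types. Replicates carry the same numbers 1 to 3 in each group. In every comparison of a treatment with untreated cells, same-numbered libraries deviated together from their group means (every pair's correlation over 0.1), as they did in 101 of 108 pairs of groups, so the numbers were taken to pair the libraries, except for some pairs of treatments in MKN1 at 24 h (lowest r −0.02). The main fits hold no term for this pairing, which enters only the blocked fit. The correlations were taken within a line and time, whereas the block also ties libraries of 4 h to those of 24 h, which was not checked. No 2 libraries were identical.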

Additional observations from a re-analysis of the deposited data

Results flagged for a closer look

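The results below are differences of the afatinib effect between times or between cell lines that passed edgeR's quasi-likelihood test of the difference itself, after Benjamini-Hochberg adjustment over all genes. All values are differences of log2FC. Within NCI-N87, the effect at 24 h exceeded that at 4 h by 1.00 for BMF, and lay lower by −1.03 for PMAIP1 and −0.88 for BID. Within MKN7 the HRK effect was 1.80 higher at 24 h.

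Between NCI-N87 and MKN7 the effects at 4 h differed by 2.45 for BMF and 1.21 for BBC3. At 24 h they differed by 3.34 for BMF, 1.10 for BBC3, −0.68 for PMAIP1, 0.94 for BIK and −1.58 for HRK. The BMF call at 4 h was lost without replicate 2 (p.adjust 0.576) or 3 (0.0651). The SE of this BMF difference, 0.60, comes from a spread pooled over all lines. It is larger than the SE of the BMF effect in the separate fits of NCI-N87 and MKN7. The PMAIP1 call was lost without replicate 2 (p.adjust 0.212) or 3 (0.156) and with libraries scaled by size alone (0.0689).

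Between NCI-N87 and MKN1 the differences at 4 h were 0.76 for BCL2L11 and 1.47 for BBC3, and at 24 h 2.69 for BMF, 1.20 for BBC3, −0.66 for PMAIP1 and −0.67 for BID. That of BCL2L11 was lost without any of the replicates (p.adjust 0.066 to 0.28), as was that of BID (0.0785 to 0.0992). That of PMAIP1 was lost without replicate 2 (−0.42, p.adjust 0.296) or 3 (0.0942) and with libraries scaled by size alone (0.103).

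Between NCI-N87 and Hs746T the differences at 4 h were 3.62 for BMF, 0.82 for BCL2L11 and 1.66 for BBC3. At 24 h they were 5.12 for BMF, 0.61 for BCL2L11, 1.68 for BBC3, −1.14 for PMAIP1 and −1.03 for BID. The BCL2L11 call was lost at 4 h without replicate 2 (p.adjust 0.0839) or 3 (0.0601), and at 24 h without replicate 3 (0.113).

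Among the other lines, BIK differed by −0.78 between MKN7 and MKN1 at 24 h, a call lost without any of the replicates (p.adjust 0.112 to 0.33). Between MKN7 and Hs746T at 24 h BMF differed by 1.78 and BIK by −1.27, and between MKN1 and Hs746T BMF differed by 2.43. BIK in Hs746T had at most 0.672 CPM, so its fold there rests on few counts (p.adjust 0.243 for MKN7 against Hs746T without replicate 3).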

How the results depend on the processing

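Over 126 log2FC values of members that passed the test, 902 values under the alternatives were computed: 816 kept direction and threshold, 86 kept the direction but did not pass (74 of them without a replicate), and 0 changed direction. Of 76 counts of members, 55 never moved by more than 1.5 times. Unless a value above shows it, the cause was not tested.

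With the replicate number as a block, the pairing of the libraries raised the number of members whose afatinib effect differed: between times from 1 to 2 in MKN7 and from 0 to 1 in MKN1, between lines at 4 h from 0 to 2 for MKN7 against MKN1, MKN7 against Hs746T and MKN1 against Hs746T, and at 24 h from 1 to 2 for MKN7 against MKN1, from 2 to 6 for MKN7 against Hs746T and from 1 to 2 for MKN1 against Hs746T. It also moved the members regulated by cetuximab in MKN1 at 4 h from 0 to 1 (DESeq2 1) and those regulated with time in untreated MKN1 from 1 to 2. Besides the calls given beside the results, it added BIK in NCI-N87 with both agents at 4 h (0.27) and 24 h (0.29), PMAIP1 (−0.34) and BID (−0.27) in MKN7 with both agents at 4 h, BID in NCI-N87 against MKN7 at 24 h (−0.48) and against Hs746T at 4 h (−0.49), BCL2L11 in NCI-N87 against MKN1 at 24 h (0.45), BCL2L11 (0.56) and PMAIP1 (0.50) in MKN7 against MKN1 at 4 h, BCL2L11 in MKN7 against Hs746T at 4 h (0.63), and PMAIP1 in MKN1 against Hs746T at 4 h (−0.79) and 24 h (−0.49). It changed no other call in the comparisons it was run for, which leave out those between untreated lines, and removed 0. Its calls between times rest on a pairing of the times that was not checked.

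Scaling by library size alone moved the median of all genes to 0.29 for afatinib at 24 h in NCI-N87 and the share of regulated genes that were higher there from 61.2% to 77%. Under it, 3 members were regulated with time in untreated MKN1, 1 differed for NCI-N87 against MKN1 at 4 h and 0 for MKN7 against MKN1 at 24 h. Without a filter 2 members differed between times in MKN7, and without a filter or with at least 10 counts in every library 2 were regulated with time in untreated MKN1.

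Leaving out a replicate gave 0 to 1 regulated members for afatinib, alone or with trastuzumab, at 4 h in MKN7 and MKN1, 1 to 2 for EGF and for EGF with cetuximab at 24 h in MKN1, 1 to 2 with time in untreated MKN1 and 1 to 2 for untreated MKN7 against MKN1. Members with a different afatinib effect were 0 to 2 between times in MKN7, 0 to 1 in MKN1, 0 to 1 at 4 h and 2 to 5 at 24 h for NCI-N87 against MKN7, 1 to 2 and 2 to 3 for NCI-N87 against MKN1, 0 for MKN7 against MKN1 at 24 h, 0 to 2 for MKN7 against Hs746T and 0 to 1 for MKN1 against Hs746T. Depth limits HRK and BIK in Hs746T, which lie near 3 counts a library or at under 1 CPM.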
